A study of Mus musculus with 9 samples.

Results

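The cytosolic heat shock chaperones followed here are 10 genes, chosen by name from the 22165 gene rows of the count table: the transcription factor gene Hsf1, the Hsp70 genes Hspa1a, Hspa1b and Hspa8, the Hsp90 genes Hsp90aa1 and Hsp90ab1, the Hsp110 gene Hsph1, the J-protein genes Dnajb1 and Dnaja1, and the small heat shock protein gene Hspb1. They were taken by gene name, whatever their values, and all 10 passed the filter on low counts. The cells were macrophages differentiated in culture from the bone marrow of C57BL/6N mice aged 6 to 16 weeks. Every group received lipopolysaccharide (LPS, 100 ng/mL for 24 h), which Gram-negative bacteria carry in their outer membrane, so no library shows macrophages without LPS. By their labels, 3 libraries are wild type (WT), 3 are Irg1 KO, lacking Irg1 (Acod1), which makes itaconate out of cis-aconitate, and 3 are Irg1 KO given 1 mM itaconate 4 h after LPS. The Irg1 reads go against 4 of these labels, as given below, and groups are called by their labels only. Nothing given tells what was removed from Irg1, or whether the replicates were separate mice or separate wells. The p-values therefore measure only how far these samples differ from each other, and that may be technical.

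Heat shock factor 1, encoded by Hsf1, is held inactive by chaperones in unstressed cells. When unfolded proteins or cysteine-modifying electrophiles draw those chaperones away, it forms trimers that bind inverted repeats of GAA, the heat shock element, and switch on chaperone genes. Hspa1a, Hspa1b, Hsph1, Dnajb1 and Hspb1 are classical targets, whereas Hspa8 and Hsp90ab1 are made at high levels without stress. Itaconate is itself a weak electrophile that accumulates in macrophages after LPS, so the comparison of KO with WT asks what its loss does to these genes, and the comparison of itaconate-treated with untreated KO asks what adding it back does.

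The Hsp70 genes and both Hsp90 genes end their coding sequence with closely related codons, shown here because they mark the Hsp70 and Hsp90 proteins as partners of the same adaptors. The last 60 coding bases before the stop codon were read from GENCODE M21 transcripts (GRCm38). The last 15 are in capitals and encode the tail by which Hsp70 and Hsp90 hold co-chaperones with tetratricopeptide repeats, such as Stip1 and Stub1.
Hspa1a: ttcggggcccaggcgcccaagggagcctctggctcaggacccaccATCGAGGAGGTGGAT
Hspa1b: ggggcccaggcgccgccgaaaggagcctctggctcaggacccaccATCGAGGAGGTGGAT
Hspa8: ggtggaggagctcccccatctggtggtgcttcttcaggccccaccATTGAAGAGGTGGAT
Hsp90aa1: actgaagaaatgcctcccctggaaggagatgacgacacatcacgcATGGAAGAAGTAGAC
Hsp90ab1: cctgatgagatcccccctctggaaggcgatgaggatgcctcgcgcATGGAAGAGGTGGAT
The 15 bases in capitals are the same in Hspa1a and Hspa1b, and over the whole coding sequence those 2 genes were 99.4% identical (1918 of 1929 aligned positions). Their 3′ untranslated regions were 48.1% identical, and no stretch of 50 bases in the last 500 bases of either transcript recurred in another gene, so reads from the 3′ ends can be told apart. The coding sequences of Hsp90aa1 and Hsp90ab1 were 75.7% identical. Hspa8 was different in this respect. Of its 50-base stretches near the 3′ end, 81.8% recurred in transcripts of 11 other genes, as did 54.5% of those of Hspb1 in Hsp25-ps1 and 7.76% of those of Hsp90ab1 in Gm6368. None of these copies had a row in the count table. Reads that align to several places were set aside in counting, so Hspa8 and Hspb1 may be counted too low. Their levels are less certain than those of the other members.

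The promoter windows of Hspa1a, Hspa1b, Hsph1, Dnajb1, Dnaja1 and Hspb1 were searched for the heat shock element, because these are the sites through which HSF1 acts. Hspa8, Hsp90aa1, Hsp90ab1 and Hsf1 were not searched. Windows from the RefSeq table for GRCm38.p6 ran from 250 bases before to 50 bases after each start site. The pattern of 2 units, GAA-NN-TTC or TTC-NN-GAA, where N is any base, was found in 6 of the 10 windows of these 6 genes, over 5 of the 6, and in 15.1% of all 32851 windows. The pattern of 3 units, GAA-NN-TTC-NN-GAA or TTC-NN-GAA-NN-TTC, was found in 2 of the 10, of Hsph1, and in 0.603% of all windows. It holds the pattern of 2 units within it, and each pattern equals its own reverse complement or pairs with the other on the opposite strand, so 1 search covers both strands. Windows of 1 gene can overlap. No window of Dnajb1 held either pattern, which says only that these letters were not in it. Each 30-base site is shown with its element in capitals, on the strand of the gene.
Dnaja1 (chr4:40722333-40722362, plus strand): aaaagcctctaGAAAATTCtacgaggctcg
Hspa1a (chr17:34972242-34972271, minus strand): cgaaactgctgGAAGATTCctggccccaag
Hspa1b (chr17:34959324-34959353, minus strand): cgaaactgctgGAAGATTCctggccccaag
Hspb1 (chr5:135887791-135887820, plus strand): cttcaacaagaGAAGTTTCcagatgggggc
Hspb1 (chr5:135887811-135887840, plus strand): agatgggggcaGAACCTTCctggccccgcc
Hsph1 (chr5:149636279-149636308, minus strand): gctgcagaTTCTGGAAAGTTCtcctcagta
Hsph1 (chr5:149636351-149636380, minus strand): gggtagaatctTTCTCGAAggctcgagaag
In the order shown, the elements began at -124, -104, -104, -117, -97, 15 and -33 from the RefSeq start site of their window. The element of 3 units in Hsph1 thus lay past that start site, not before it. The Dnaja1 and Hsph1 elements also lay inside the gene spans given below. The Hspa1a and Hspa1b sites are the same 30 bases. Their 250 bases before the start site were identical at 247 positions, which is why one promoter stands here for the pair. It is that of Hspa1a on the minus strand of chromosome 17, chr17:34972157-34972406, with its element in capitals.
Hspa1a promoter: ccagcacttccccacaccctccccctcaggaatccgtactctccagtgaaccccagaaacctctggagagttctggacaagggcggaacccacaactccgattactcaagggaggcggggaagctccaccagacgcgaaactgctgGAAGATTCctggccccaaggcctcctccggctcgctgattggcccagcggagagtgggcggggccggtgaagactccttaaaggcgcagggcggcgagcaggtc
Counted from the first base shown, Hspa1b differed from Hspa1a by C44T, T47C and T249G.

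In GRCm38 the Hsp90aa1 gene (ENSMUSG00000021270.13) lies on the minus strand of chromosome 12 at 110690605-110702728 and Hsp90ab1 (ENSMUSG00000023944.14) on the minus strand of chromosome 17 at 45567775-45573271. Hspa8 (ENSMUSG00000015656.16) lies on the plus strand of chromosome 9 at 40800984-40810087, with small nucleolar RNA genes in its introns. Hspa1a (ENSMUSG00000091971.3) and Hspa1b (ENSMUSG00000090877.3) are neighbours on the minus strand of chromosome 17, at 34969190-34972156 and 34956436-34959238. Gm20481 overlaps Hspa1a on the opposite strand. Dnaja1 (ENSMUSG00000028410.13) on chromosome 4, plus strand, 40722150-40737149, overlaps Smu1 and Gm6297 on the opposite strand. Dnajb1 (ENSMUSG00000005483.9) lies on chromosome 8, plus strand, 83608193-83612653. Hsph1 (ENSMUSG00000029657.15) on the minus strand at 149614287-149636376 and Hspb1 (ENSMUSG00000004951.10) on the plus strand at 135887919-135889563 are both on chromosome 5. Hsf1 (ENSMUSG00000022556.9) lies on chromosome 15, plus strand, 76477422-76501913.

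Before the members are compared, 4 libraries have to be pointed out, because their Irg1 reads go against their labels. They were kept under their labels in the main fit, the means and the figures, and left out only in alternative fits. Irg1 had 94, 117 and 31169 reads under the WT label, 154, 170 and 44920 under the KO label, and 94, 8 and 60716 under the itaconate label, each for replicates 1, 2 and 3. WT replicates 1 and 2 were thus low, and KO replicate 3 and itaconate replicate 3 high, and every direction given for a group rests on labels that these 4 libraries do not bear out. The libraries held 7361671 to 20430359 gene reads. A count of 3 then equals 0.147 to 0.401 CPM, the gene's reads scaled to a common library total by the trimmed mean of M-values (TMM). Each library is named throughout by its label and replicate number. One of them, labelled itaconate replicate 3, correlated less with the rest (mean 0.926) than any other library did (0.949 to 0.963). Its share of mitochondrially encoded reads was also the lowest, 0.709% where the 8 others had 1.27% to 2.57%. Reads outside genes made up 33.7% of that library and 23.1% to 28.4% of the others, and its share of ambiguous reads, 0.275%, was the lowest. The macrophage markers Adgre1, Cd68, Csf1r, Itgam, Fcgr1, Mertk, Lyz2 and Cd14 were all detected, and summed to 7434 to 9688 CPM under the WT label, 6693 to 7158 under the KO label and 3668 to 7253 under the itaconate label, with the lowest sum in itaconate replicate 3. Fibroblast markers summed to 166 to 271 CPM and neutrophil markers to 79.1 to 252 CPM. Dendritic, T or NK, B and mast cell markers each summed to at most 2.43 CPM, and Cd3e, Ncr1, Cd79a, Cpa3, Fcer1a and the erythroid gene Alas2 were at 0 reads in every library. In these bulk lysates, fewer cells of a type and less RNA per cell cannot be told apart. The description labels carry a number that they do not define, called the description number here. It is 1 in all libraries labelled WT and in KO replicates 1 and 2, 2 in KO replicate 3 and itaconate replicate 1, 3 in itaconate replicate 2 and 4 in itaconate replicate 3.

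No member passed an adjusted p of 0.05 in any of the 3 comparisons. The same held for all 10781 genes tested, of which edgeR called 0.0% in each comparison. At an unadjusted p under 0.05, 0 members differed between KO and WT, against 3.13% of all genes. For itaconate against KO there were 3, Hsp90aa1 and Hsp90ab1 higher and Hspa8 lower, against 8.3% of all genes. For itaconate against WT they were the same 3 in the same directions, against 8.89% of all genes. The itaconate libraries are shared by the last pair of comparisons, so those counts are not independent. DESeq2 called 1, 15 and 23 genes in the 3 comparisons in that order, and no member among them, although it gave 6 members no adjusted p in itaconate against KO. Of the 10 members, 4, 4 and 5 lay above 0 in the 3 comparisons. Their median log2 fold change was -0.06 in the first comparison, -0.17 in the second and -0.16 in the third, beside -0.01, -0.02 and -0.01 over all genes tested.

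**Figure D1:**
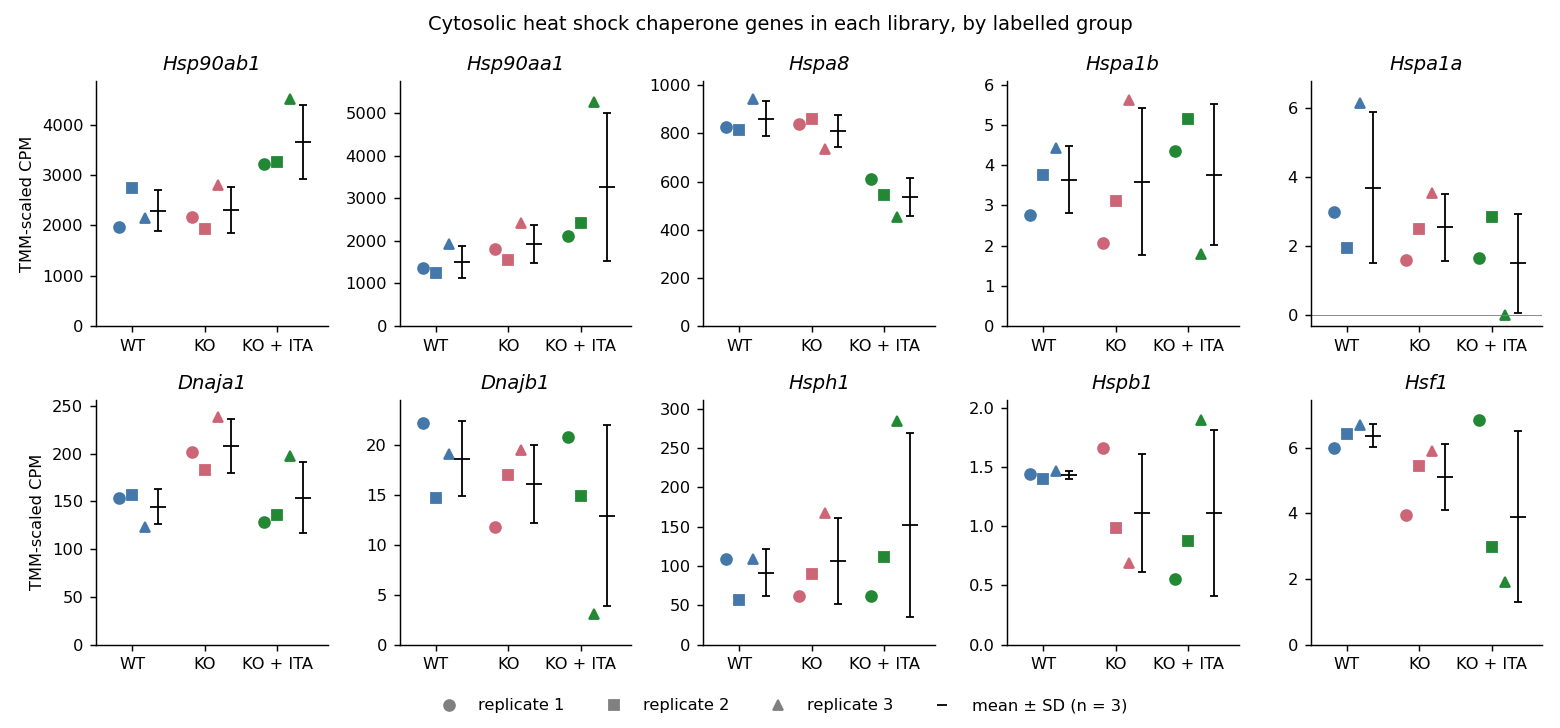
TMM-scaled CPM, from 0, for each chaperone gene in each library. Marker shapes give the replicate, colours the labelled group, and black bars the mean ± SD of 3 libraries. The itaconate libraries lie below all others for Hspa8 and above all others for Hsp90ab1, and itaconate replicate 3 is the highest library for Hsp90aa1 and Hsph1 and the lowest for Dnajb1.

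Levels of the 10 genes spanned more than 3 orders of magnitude. The reads come from 3′ ends and do not grow with transcript length, so CPM are set side by side between genes without a length correction. Over the 9 libraries Hsp90ab1 averaged 2751 ± 829 CPM (SD), Hsp90aa1 2237 ± 1217 and Hspa8 736 ± 165. Dnaja1 followed with 169 ± 38.9 CPM and Hsph1 with 117 ± 71.8. Dnajb1 averaged 15.9 ± 5.84 CPM, Hsf1 5.12 ± 1.76, Hspa1b 3.66 ± 1.33, Hspa1a 2.58 ± 1.69 and Hspb1 1.22 ± 0.461. The ranges of Hsp90aa1 and Hspa8 did not overlap, nor did those of Hspa8 and Dnaja1, or of Hsph1 and Dnajb1. All other neighbours in this order overlapped, although Dnajb1 exceeded Hsf1 in 9 of 9 libraries and Hsp90ab1 exceeded Hsp90aa1 in 8 of 9. The level did not follow the split into inducible and constitutive genes: Hspa1a, Hspa1b, Dnajb1 and Hspb1 were low, but of the other genes known to be induced by stress Hsp90aa1 was second in the order and Hsph1 the fifth.

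Hsf1, the transcription factor gene itself, was covered by 18 to 82 reads per library. It measured 6.00, 6.40 and 6.69 CPM under the WT label, 3.96, 5.44 and 5.90 CPM under the KO label, and 6.83, 2.96 and 1.90 CPM under the itaconate label, given here and below in the order of replicates 1, 2 and 3. The KO libraries all lay below the WT libraries, by a narrow margin, and the itaconate libraries held both the highest and the lowest value of the series. Means were 6.36 ± 0.345, 5.10 ± 1.02 and 3.90 ± 2.60 CPM (SD, n = 3 each). The log2 fold change of KO against WT was -0.32 ± 0.46 (SE), with an edgeR adjusted p of 0.995. Itaconate-treated libraries gave -0.37 ± 0.47 against KO (adjusted p 0.855) and -0.70 ± 0.47 against WT (adjusted p 0.668). Without itaconate replicate 3 these last values were -0.05 and -0.36, and without itaconate replicate 1 they were -1.06 and -1.39.

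Hspa1a and Hspa1b encode the stress-inducible Hsp70 that refolds damaged proteins, and both were barely expressed. Hspa1a had 25, 25 and 46 reads under the WT label, 33, 33 and 36 under the KO label, and 18, 26 and 0 under the itaconate label. As levels these were at most 6.15 CPM in WT, 3.54 CPM in KO and 2.85 CPM in itaconate, with means of 3.70 ± 2.19, 2.55 ± 0.966 and 1.5 ± 1.43 CPM (SD, n = 3 each). WT replicate 3 was the highest and the 3 groups overlapped. The 0 in itaconate replicate 3 allows up to 0.317 CPM, a limit that covers counting error only. Hspa1b had 23, 48 and 33 reads in WT, 42, 41 and 57 in KO and 47, 47 and 17 in itaconate, or 2.76, 3.75 and 4.41 CPM, 2.05, 3.10 and 5.61 CPM, and 4.34, 5.15 and 1.79 CPM. Its groups also overlapped, and itaconate replicate 3 was again the lowest. Means were 3.64 ± 0.832, 3.59 ± 1.83 and 3.76 ± 1.75 CPM (SD, n = 3 each). Hspa1a fold changes on the log2 scale were -0.53 ± 0.83 (SE) for KO against WT, -0.75 ± 0.86 for itaconate against KO, and -1.28 ± 0.87 when itaconate was compared with WT. Those of Hspa1b were -0.04 ± 0.53, 0.08 ± 0.53 and 0.05 ± 0.54. The edgeR adjusted p for this pair of genes lay between 0.670 and 0.999. With their reads summed before the fit, the pair gave -0.26 ± 0.52, -0.21 ± 0.52 and -0.47 ± 0.52 in the same 3 comparisons. The inducible pair made up 0.396% to 1.45% of the reads of the 3 Hsp70 genes in a library, the rest being Hspa8. This share may be too high, because Hspa8 reads that align to several places were set aside.

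Hspa8 encodes the constitutive cytosolic Hsp70, Hsc70, which folds new proteins and uncoats clathrin vesicles. It measured 826, 813 and 945 CPM under the WT label and 838, 860 and 734 CPM under the KO label. Under the itaconate label it measured 611, 543 and 452 CPM. All 3 itaconate libraries lay below all 6 others, while WT and KO overlapped. Groups that did not overlap were found for 2 members in itaconate against KO, Hspa8 and Hsp90ab1, beside 10.9% of all genes tested (5.57% higher and 5.29% lower). In itaconate against WT they were found for 3 members, Hsp90aa1 as well, beside 14.6% of all genes (7.29% higher and 7.26% lower). Hspa8 means were 861 ± 72.6, 811 ± 67.6 and 535 ± 79.9 CPM (SD, n = 3 each). For itaconate against KO the log2 fold change was -0.60 ± 0.25 (SE; 95% interval -1.14 to -0.06), with an edgeR unadjusted p of 0.0312 and an adjusted p of 0.568. For itaconate against WT it was -0.69 ± 0.25 (interval -1.22 to -0.15; unadjusted p 0.0159, adjusted p 0.524). KO and WT differed by -0.09 ± 0.25, with an interval of -0.62 to 0.45. Without itaconate replicate 3 the first 2 values were -0.50 and -0.57, and with the 4 doubtful libraries left out they were -0.58 and -0.72. The latter fit left itaconate sharing no description number with the other groups. With the description number as a term, which leaves itaconate replicate 1 against KO replicate 3, the value for itaconate against KO was -0.26 ± 0.37.

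For the Hsp90 genes the itaconate libraries lay on the high side, where for Hspa8 they lay on the low side. Hsp90ab1, which encodes the constitutive Hsp90β, measured 1975, 2748 and 2155 CPM under the WT label, 2173, 1931 and 2808 CPM under the KO label, and 3211, 3258 and 4502 CPM under the itaconate label. The itaconate libraries all lay above the 6 others. Means were 2293 ± 405, 2304 ± 453 and 3657 ± 732 CPM (SD, n = 3 each). The log2 fold change was 0.67 ± 0.27 (SE) for itaconate both against KO (interval 0.09 to 1.24; edgeR adjusted p 0.549) and against WT (interval 0.10 to 1.25; adjusted p 0.542). KO and WT differed by 0.01 ± 0.27. Without itaconate replicate 3 the first 2 values were 0.48 and 0.50, and without the 4 libraries against their label 0.63 and 0.58. The latter fit again left itaconate sharing no description number with the other groups. With the description number as a term the value for itaconate against KO was 0.19 ± 0.38.

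Hsp90aa1 encodes Hsp90α, the form induced by stress. It measured 1362, 1235 and 1932 CPM under the WT label, 1817, 1543 and 2431 CPM under the KO label, and 2123, 2412 and 5278 CPM under the itaconate label. Itaconate replicate 3 held more than any other library. The other pair of itaconate libraries lay above all WT libraries but not above KO replicate 3. The highest library of each group was replicate 3, which was in each group also the library with the most Irg1 reads, and the part of this in the result was not tested. Means were 1510 ± 371, 1931 ± 455 and 3271 ± 1744 CPM (SD, n = 3 each). Itaconate against WT gave a log2 fold change of 1.12 ± 0.35 (SE; interval 0.36 to 1.87), with an edgeR unadjusted p of 0.00659 and an adjusted p of 0.515. Itaconate against KO gave 0.76 ± 0.35 (interval 0.01 to 1.51; adjusted p 0.597) and KO against WT 0.35 ± 0.35 (adjusted p 0.995). Without itaconate replicate 3 the first 2 were over 1.5 times smaller, at 0.59 and 0.22. Without the 4 libraries against their label they were 0.22 and 0.40, and KO against WT became -0.18. With the description number as a term, itaconate against KO was -0.20 ± 0.41.

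**Figure D2:**
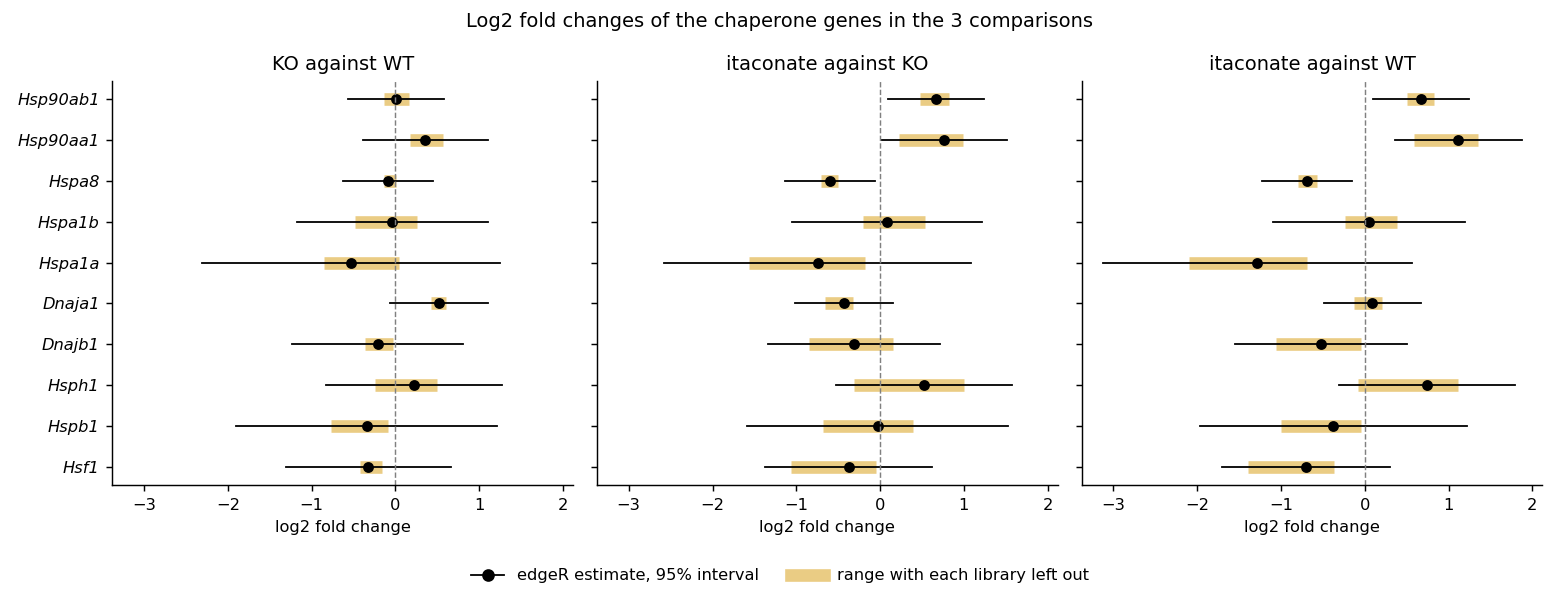
Log2 fold change of each chaperone gene (horizontal axis) in the 3 comparisons. Points are edgeR estimates with 95% intervals over all 9 libraries, and wide bars span the estimates with each library left out in turn. For itaconate against KO and against WT the intervals of Hsp90ab1, Hsp90aa1 and Hspa8 miss 0, and the Hsph1 bars cross it.

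The make-up of the chaperone reads differed between libraries accordingly. The 10 genes took 0.455%, 0.528% and 0.539% of gene reads under the WT label, 0.513%, 0.482% and 0.639% under the KO label, and 0.620%, 0.625% and 0.979% under the itaconate label. KO replicate 3 lay above itaconate replicates 1 and 2, and itaconate replicate 3 far above all. The Hsp90 pair made up 74.8% to 79.1% of the members' reads in WT, 74.9% to 81.7% in KO and 86.5% to 91.2% in itaconate. For each Hspa8 read there were 4.04, 4.90 and 4.33 Hsp90 reads under the WT label, 4.76, 4.04 and 7.14 under the KO label, and 8.73, 10.5 and 21.7 under the itaconate label. All itaconate libraries exceeded the 6 others. By description number, however, the ratio was 4.04 to 4.90 in the 5 libraries with number 1, 7.14 and 8.73 in the pair with number 2, 10.5 in the library with number 3 and 21.7 in that with number 4. Only number 2 holds both a KO and an itaconate library, so for the rest itaconate and the description number cannot be told apart. Being a ratio of reads within 1 library, it does not depend on scaling. It may be too high in every library, because Hspa8 reads that align to several places were set aside. It was chosen after its values were seen and was not tested. The balance within the Hsp90 pair varied without such an order, Hsp90aa1 holding 31.0% to 47.3% of the pair's reads in WT, 44.4% to 46.4% in KO and 39.8% to 54.0% in itaconate.

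**Figure D3:**
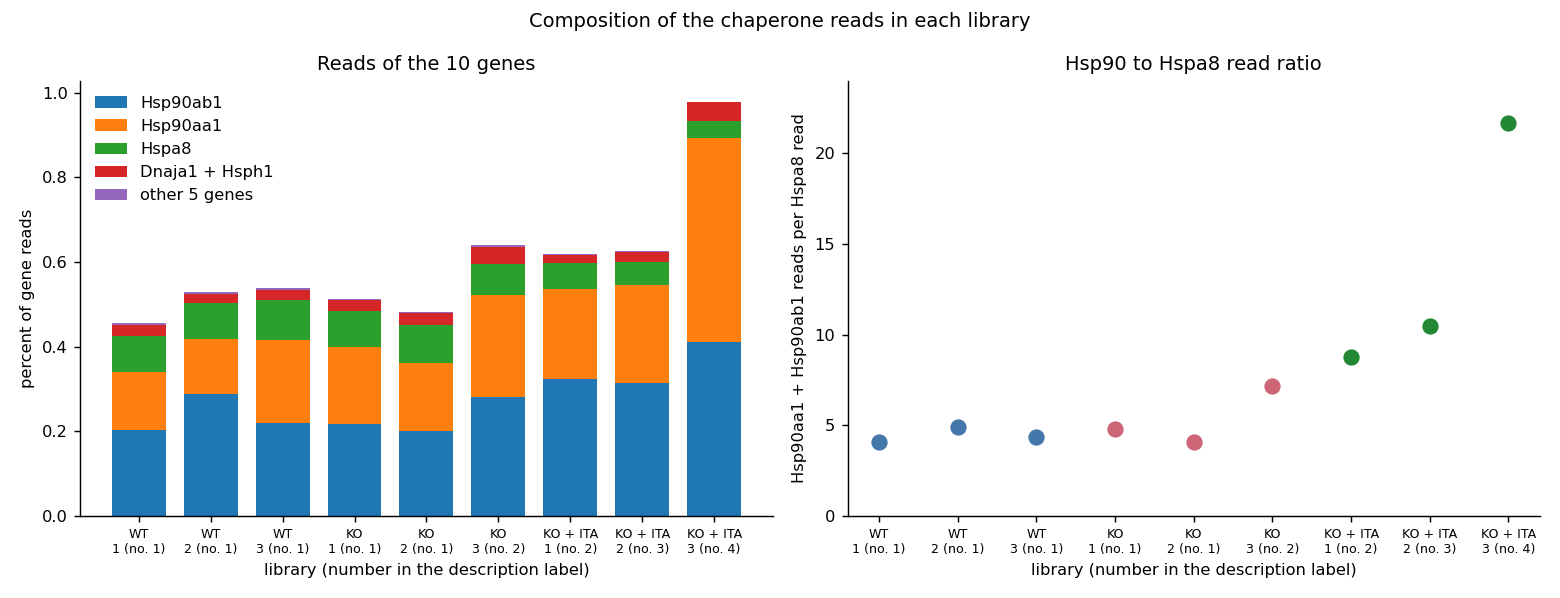
Left, reads of the chaperone genes as a percent of all gene reads, stacked by gene, for each library. Right, Hsp90aa1 plus Hsp90ab1 reads per Hspa8 read, coloured by labelled group, with the number of the description label under each library. The ratio is 4.04 to 4.90 in the libraries with number 1, 7.14 and 8.73 in those with number 2, and 10.5 and 21.7 in those with numbers 3 and 4.

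Hsph1 encodes Hsp110, which makes Hsp70 release its nucleotide and so its client, and it was the member whose promoter window held the element of 3 units shown above. It measured 109, 56.6 and 109 CPM under the WT label, 62.1, 89.9 and 167 CPM under the KO label, and 62.1, 111 and 285 CPM under the itaconate label. Itaconate replicate 3 was the highest and KO replicate 3 the next, while itaconate replicate 1 was among the lowest, so the groups overlapped. Means were 91.4 ± 30.1, 106 ± 54.4 and 153 ± 117 CPM (SD, n = 3 each). Log2 fold changes were 0.22 ± 0.49 (SE) for KO against WT, 0.52 ± 0.49 for itaconate against KO, and 0.74 ± 0.49 when itaconate was compared with WT, with edgeR adjusted p of 0.995, 0.802 and 0.666. Without itaconate replicate 3 the last pair became -0.31 and -0.07. Within number 2, itaconate replicate 1 lay below KO replicate 3, and the fit with that number as a term gave -1.43 ± 0.52 (adjusted p 0.836).

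The J proteins hand clients to Hsp70 and start its ATP hydrolysis. Dnaja1 measured 154, 157 and 124 CPM under the WT label, 202, 183 and 239 CPM under the KO label, and 129, 136 and 197 CPM under the itaconate label. The KO libraries all lay above the WT libraries, and itaconate replicates 1 and 2 lay in the WT range with replicate 3 in the KO range. Dnaja1, higher, and Hsf1, lower, were the 2 members without overlap between KO and WT, beside 10.6% of all genes tested (4.85% higher and 5.76% lower). Means were 145 ± 18.3, 208 ± 28.2 and 154 ± 37.7 CPM (SD, n = 3 each). KO against WT gave a log2 fold change of 0.52 ± 0.27 (SE; interval -0.06 to 1.11), with an edgeR unadjusted p of 0.0748 and an adjusted p of 0.995. This estimate stayed between 0.41 and 0.66 over all alternatives. Itaconate against KO gave -0.43 ± 0.27 (adjusted p 0.695), which was -0.66 without itaconate replicate 3 and -0.89 ± 0.40 with the description number as a term. Itaconate against WT gave 0.09 ± 0.27 (adjusted p 0.931).

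Dnajb1, the J protein most tied to heat shock and a brake on HSF1, had 29 to 242 reads per library. It measured 22.2, 14.7 and 19.1 CPM under the WT label, 11.8, 17.0 and 19.5 CPM under the KO label, and 20.9, 14.9 and 3.06 CPM under the itaconate label. Itaconate replicate 3 lay far below the 8 other libraries, which spread from 11.8 to 22.2 CPM with the groups mixed. Means were 18.7 ± 3.78, 16.1 ± 3.91 and 12.9 ± 9.06 CPM (SD, n = 3 each). Log2 fold changes were -0.21 ± 0.48 (SE) for KO against WT, -0.31 ± 0.48 for itaconate against KO, and -0.52 ± 0.48 when itaconate was compared with WT, with edgeR adjusted p of 0.995, 0.886 and 0.756. Without itaconate replicate 3 the last pair became 0.15 and -0.05, and without itaconate replicate 1 -0.84 and -1.06. The ratio of Dnaja1 to Dnajb1 reads was 64.5 in that library and 6.19 to 17.1 in the others. So in the same library Hsp90aa1, Hsp90ab1, Hsph1 and Hspb1 were at their highest. Dnajb1, Hspa8, Hsf1 and Hspa1b were at their lowest there, and Hspa1a was at 0 reads. Of the members only Dnaja1 was at neither end in this library. It was also the library with the low mitochondrial share, the high share of reads outside genes and the low sum of macrophage markers, and the part of these in the values was not tested.

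Hspb1, the small heat shock protein that holds unfolding proteins in solution, was near the limit of the depth. It had 12, 18 and 11 reads under the WT label, 34, 13 and 7 under the KO label, and 6, 8 and 18 under the itaconate label. Means were 1.44 ± 0.033, 1.11 ± 0.498 and 1.11 ± 0.703 CPM (SD, n = 3 each). The WT libraries lay close together, inside the range of both other groups. Log2 fold changes were -0.35 ± 0.73 (SE), -0.03 ± 0.73 and -0.37 ± 0.75 in the 3 comparisons, with edgeR adjusted p from 0.898 to 0.995. Intervals reached from -1.91 to 1.21 for KO against WT, so at this depth neither a fall within that interval nor a smaller rise was detectable.

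Among the 6 members of at least 10 CPM, Dnajb1 ranged the most over the 9 libraries, by 2.86 on the log2 scale, and Dnaja1 the least, by 0.95. Of 7288 genes at that level, those whose centred log2(CPM + 1) lay nearest to Dnajb1 were Ccl5, Gsto1, Pla2g16, Wiz and Tmem14c, with root mean square differences of 0.15, 0.18, 0.19, 0.19 and 0.19 over the 9 libraries. Being picked for this likeness, they share with Dnajb1 its lowest value in the 1 library of itaconate replicate 3. There the chemokine gene Ccl5 measured 1274 CPM, where itaconate replicates 1 and 2 had 5819 and 4650, so the low value does not belong to the itaconate group as a whole. The Hsp90 genes were each other's nearest member, at 0.36. This put Hsp90ab1 at rank 286 of 7287 genes from Hsp90aa1, and Hsp90aa1 at rank 1018 from Hsp90ab1. Hsph1 was nearest to Hsp90aa1 among the members, at rank 97 of 7287 genes. No member was the nearest gene of another.

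Other genes of the folding network gave the setting for these values. Of 74 genes in 7 lists of chaperones, co-chaperones and HSF regulators, 72 were in the table, 61 were tested and 0 were called by edgeR in any comparison. At an unadjusted p under 0.05, 2 were higher and 0 lower for KO against WT, beside 2.45% and 0.677% of all genes. There were 1 higher and 6 lower for itaconate against KO, beside 4.19% and 4.11%, and 0 higher and 4 lower for itaconate against WT, beside 5.32% and 3.56%. Of the 6 lower in itaconate against KO, 5 belonged to the 18 tested Hsp70 relatives and co-chaperones. They were the Hsp110 gene Hspa4 (-0.86 ± 0.40, SE, log2 fold change), the J-protein gene Dnajc7 (-1.02 ± 0.43), the nucleotide exchange genes Bag1 (-0.83 ± 0.35) and Bag5 (-0.76 ± 0.35), and St13 (-0.88 ± 0.41), whose product Hip steadies the ADP-bound form of Hsp70. These genes were singled out after their values were seen, and their adjusted p lay at 0.568 or 0.597. Each rested much on 1 KO library. Without KO replicate 1, Hspa4 was -0.26, Bag5 -0.32 and St13 -0.51. Without KO replicate 2, Bag1 was -0.43, and without KO replicate 3, Dnajc7 was -0.32. St13 passed at -1.51 (adjusted p 0.0398) only in the fit without the 4 libraries against their label, and Bag5 was 0.12 with the description number as a term. The median of these 18 genes for itaconate against KO was -0.12, beside -0.02 for all genes.

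Of the 12 Hsp90 co-chaperones, all tested, 1 had a low p in the itaconate comparisons. Ppid, the prolyl isomerase cyclophilin 40, measured 12.9 ± 4.71 CPM in WT, 14.1 ± 6.05 in KO and 6.59 ± 0.618 in itaconate (SD, n = 3 each). Its log2 fold changes were -1.09 ± 0.37 (SE) against KO and -0.97 ± 0.37 against WT, with edgeR adjusted p of 0.507 and 0.537. They were -0.69 without KO replicate 2 and -0.63 without WT replicate 1. Stip1, the adaptor that joins Hsp70 to Hsp90 through the tails printed above, measured 24.6 ± 3.45, 46.7 ± 39.1 and 26.9 ± 6.12 CPM, with its spread in KO set by 1 library at 91.9 CPM. Ahsa1, which stimulates the Hsp90 ATPase, measured 95.4 ± 38.1, 74.2 ± 10.3 and 74.6 ± 6.51 CPM, and Chordc1 99.6 ± 13.9, 120.0 ± 6.54 and 122 ± 34.4 CPM. The median log2 fold change of the 12 for itaconate against KO was -0.09, while both Hsp90 genes stood at 0.67 or more.

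The HSF list had 5 tested genes and none at an unadjusted p under 0.05. Of 7 tested subunits of the TRiC chaperonin, which folds actin and tubulin, Cct5 was higher in itaconate against KO (0.85 ± 0.36, SE, adjusted p 0.574). Of 6 mitochondrial chaperones, Hspe1 (-0.76 ± 0.32) and Grpel1 (-0.66 ± 0.28) were lower in itaconate against WT, at adjusted p of 0.549 and 0.547. Of 11 chaperones of the endoplasmic reticulum none had such a p in any comparison, and of 9 other small heat shock genes only Hspb6 and Hspb11 had the reads to be tested. Bag3, a co-chaperone and HSF1 target, measured 33.7 ± 13.7, 48.9 ± 15.03 and 44.5 ± 27.3 CPM in WT, KO and itaconate. Of 8 electrophile-responsive genes, Txnrd1 had an unadjusted p under 0.05 in KO against WT, higher (0.94 ± 0.36), beside 3.13% of all genes. Without KO replicate 1 it was 0.51. In itaconate against KO such a p was found for Hmox1, higher, beside 8.3% of all genes. In itaconate against WT it was found for Gclc, higher (0.85 ± 0.33), and Osgin1, lower (-0.99 ± 0.43), beside 8.89%. The groups overlapped for Osgin1, which was lowest in itaconate replicate 3, at 2.64 CPM. Hmox1, the heme oxygenase gene, measured 277 ± 94.7, 241 ± 76.1 and 406 ± 37.6 CPM (SD, n = 3 each), with a log2 fold change of 0.76 ± 0.32 for itaconate against KO (adjusted p 0.568). Of 7 tested immediate early genes, Junb had such a p in itaconate against KO, higher (1.005 ± 0.318, edgeR adjusted p 0.507). Fos had one in itaconate against WT, higher (1.609 ± 0.575, edgeR adjusted p 0.524), with its highest level, 171 CPM, in itaconate replicate 3.

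**Figure D4:**
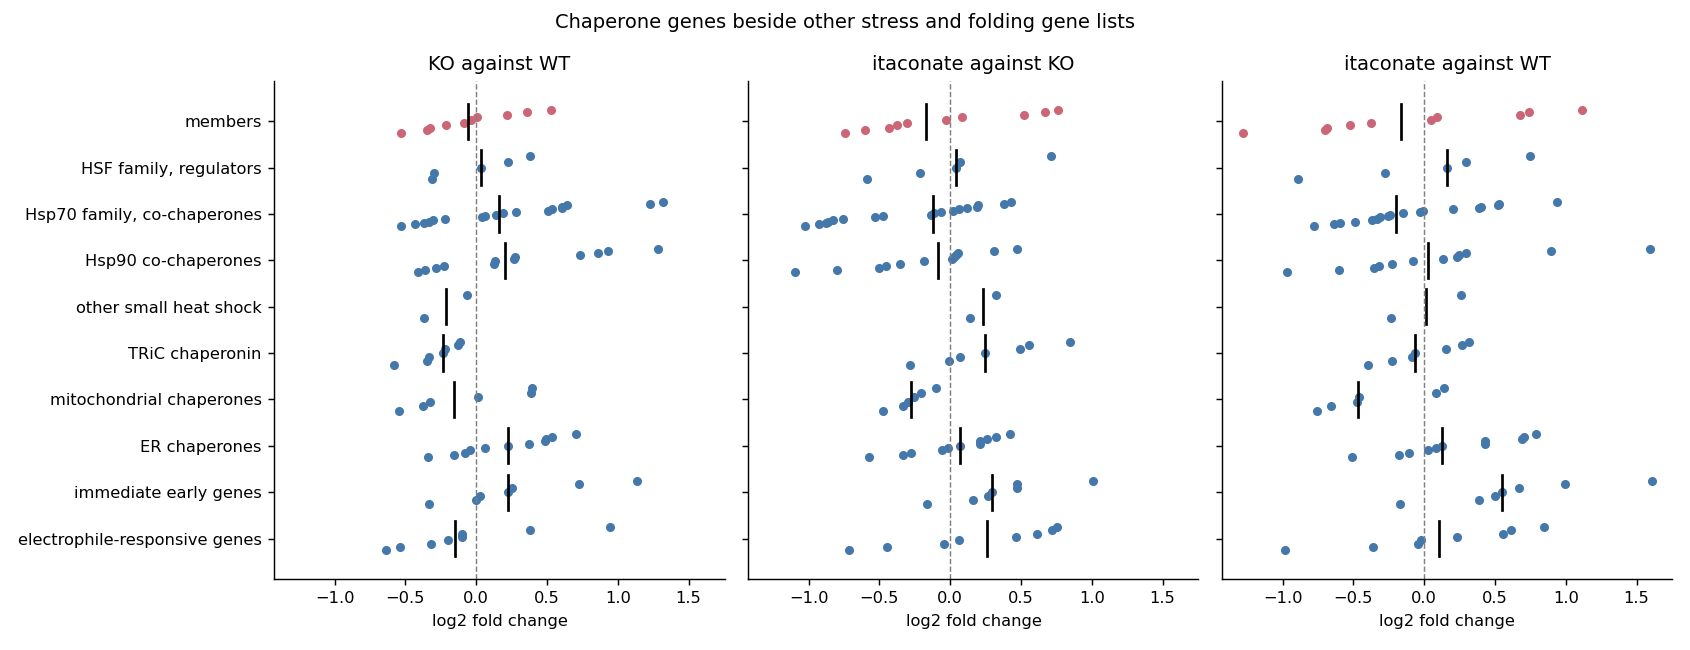
Log2 fold changes (horizontal axis) of the 10 chaperone genes (red, labelled members) and of the tested genes of 9 other lists (blue) in the 3 comparisons, with each list's median as a black line. For itaconate against KO the 3 highest chaperone genes are Hsp90aa1, Hsp90ab1 and Hsph1, at 0.76, 0.67 and 0.52.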

How the data were processed

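Polyadenylated RNA was copied from its 3′ end with barcoded oligo-dT primers and sequenced strand-specifically in pools, per the labels' protocols, which mention no molecular identifier. The authors deposited raw read counts per gene. STAR, HTSeq and mm10 are named in the submitters' processing notes, with versions and annotation release not given in the sources used here. Summary lines of the counter (5) were excluded. They held 23.1% to 33.7% of a library's reads as lying outside genes, 17.1% to 20.0% as aligned to several places and 0.275% to 0.441% as ambiguous. Gene symbols were matched for 21745 of 22165 identifiers.

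Counts were tested with the quasi-likelihood test of edgeR 4.0.16 (R 4.3.3) over all 9 libraries with group as the only term, TMM scaling, the edgeR expression filter at a minimum count of 10 (10781 genes kept), Benjamini-Hochberg adjustment over all genes and a threshold of 0.05, after being tested on simulated data. Alternatives were other scaling (DESeq2 factors, gene reads alone), no filter, DESeq2 1.42.0, the compared groups alone, the replicate block, the description number as a term, Hspa1a and Hspa1b summed, each library left out, and the 4 libraries against their Irg1 label left out. The floor of 3 reads covers counting error only. The intervals given are edgeR intervals on log2 fold changes.

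The members and lists were chosen with earlier results of these data known. The rule for named genes took the 10 members, Irg1, a panel of 11 other stress genes, the 2 highest-expressed genes of each list, any list gene called by edgeR (there were 0) and the 5 genes most like the widest-ranging member. Values are printed for the panel and list genes that bear on the members, and list genes named for a low p were chosen after their values were seen. A result on erythroid markers is not reported here.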

Additional observations from a re-analysis of the deposited data

How the results depend on the processing

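No member was called in any comparison under any of the 18 alternatives. DESeq2 gave no adjusted p for 6 members in itaconate against KO (Hsf1, Hspa1a, Hspa1b, Hsph1, Dnajb1 and Hspb1), which could not have been called there. In all, of 506 alternative values of the members, 461 kept their sign and 45 did not. Of 30 member results, 14 kept their sign in all the alternatives fitted for them. They include Dnaja1 in KO against WT, Hsp90ab1 and Hspa8 in both itaconate comparisons, and Hsp90aa1 in itaconate against WT. For itaconate against WT the alternatives do not include the description number as a term, which was fitted for the other comparisons only. With that term Hsp90aa1 was 0.15 in KO against WT and -0.20 in itaconate against KO. Log2 fold changes from the same fit add up, so itaconate against WT would be slightly negative there. Its sign would thus be the reverse of that in the main fit.

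The number of genes called over the whole table, 0 in each comparison, was 1, 15 and 23 with DESeq2 (KO against WT, itaconate against KO, itaconate against WT), 80 and 92 without the filter in the itaconate comparisons, and 2, 217 and 1 without the 4 libraries against their label. That last fit keeps 1 library labelled WT, which is assumed to vary like the other groups. Its WT and KO libraries all carry description number 1, and its itaconate libraries numbers 2 and 3. In it, itaconate and the description number cannot be told apart. Leaving out each library gave 0 to 0, 0 to 6 and 0 to 4, the highest values coming without itaconate replicate 1.

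Signs changed as follows, the cause not being tested. In KO against WT, Hsp90ab1 was -0.021 scaled by gene reads alone and -0.16 with the description number as a term. Hsph1 was -0.26 with that term. Without the 4 libraries Hsp90aa1 was -0.18, Hsp90ab1 -0.050 and Hsph1 -0.50. In itaconate against KO, the description number as a term gave Hsf1 0.21, Hspa1b -0.37, Hsp90aa1 -0.20, Hsph1 -1.43, Dnajb1 0.10 and Bag5 0.12. Without the 4 libraries Hsf1 was 0.052, Hspa1a 0.11 and Dnajb1 0.29. In itaconate against WT, Hspa1b was -0.035 and Dnaja1 -0.018 scaled by gene reads alone, and Hsph1 was -0.34 without the 4 libraries. Summing Hspa1a and Hspa1b gave -0.21 against KO and -0.47 against WT where Hspa1b alone was above 0.

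With each library left out in turn, KO against WT ranged from -0.85 to 0.039 for Hspa1a, -0.48 to 0.25 for Hspa1b, -0.13 to 0.0029 for Hspa8, -0.14 to 0.16 for Hsp90ab1 and -0.24 to 0.49 for Hsph1. Itaconate against KO ranged from -0.21 to 0.54 for Hspa1b, -0.31 to 1.00 for Hsph1, -0.84 to 0.15 for Dnajb1 and -0.68 to 0.39 for Hspb1. Itaconate against WT ranged from -0.24 to 0.39 for Hspa1b, -0.075 to 1.11 for Hsph1 and -0.12 to 0.20 for Dnaja1.

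Whether the replicate numbers pair the samples cannot be told from correlations over all genes, which were weak. Among same-numbered pairs, 3 of 9 deviated together with a correlation over 0.1 (range -0.20 to 0.31), against 5 of 18 differently numbered pairs. Irg1 and Hsp90aa1 were each highest in replicate 3 of every group. The replicate block called 0 genes in each comparison and gave -0.0082 for Hsp90ab1 in KO against WT. The description number was not used as a term for itaconate against WT, which share no number and are joined only through the KO libraries. Depth limits Hsf1, Hspa1a, Hspa1b and Hspb1 the most.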
